A study of Mus musculus with 12 samples.

Results

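The genes described here are 9 genes by which resident macrophages of the liver, the Kupffer cells, are commonly recognised. They are Clec4f, Vsig4, Timd4, Cd5l, Marco, C1qa, C1qb, C1qc and Spic. They were taken by name from a table of 47263 genes, and the question was whether they moved together or apart. All 9 were present and passed the filter on low values, which 13871 genes met. Expression was measured by RNA sequencing of whole mouse liver in 12 libraries, 3 in each of 4 groups.

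WT GFP livers came from wild-type mice injected with a GFP plasmid, and KO GFP livers from mice with a hepatocyte-specific knockout of Sirt2 given the same plasmid. Livers labelled WT MET/CAT and KO MET/CAT came from mice of those 2 genotypes injected with c-MET and DN90-β-catenin, oncogenes that together give a mouse model of liver cancer. All mice received their plasmids together with the Sleeping Beauty transposase by hydrodynamic tail vein injection at 6 to 8 weeks of age, ate a standard diet and were sampled 8 weeks later. The Cre driver is not named in those labels. Groups follow the sample titles. The treatment field of the labels contradicts them, since it follows genotype, with GFP for all WT and MET/CAT for all KO libraries, and every direction below relies on the titles. No label says that each replicate is a separate mouse, so p-values speak only of the spread among libraries.

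Kupffer cells line the liver sinusoids, where they take up bacteria, dying cells and worn-out red cells from the blood. Clec4f is a C-type lectin that mouse Kupffer cells carry and most other macrophages lack. Vsig4 is a receptor for complement-coated particles, Timd4 binds phosphatidylserine on dying cells, and Marco is a scavenger receptor for bacteria. Cd5l is a protein that tissue macrophages secrete. C1qa, C1qb and C1qc encode the chains of C1q, the recognition unit of the classical complement pathway, which macrophages make. Spic is a transcription factor of the ETS family that heme induces and that iron-recycling macrophages need. Monocytes that enter an injured liver can acquire several of these genes, and Timd4 is often slow to appear on such newcomers.

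The 9 genes lie on 7 chromosomes, and only the C1q genes are neighbours. In GRCm38 with GENCODE M21, C1qb (chromosome 4, 136880129 to 136886187), C1qc (136889804 to 136893065) and C1qa (136895917 to 136898803) share the minus strand within 18675 bases, with gaps of 3616 and 2851 bases. Clec4f lies on chromosome 6 (83644542 to 83656187), Vsig4 on chromosome X (96247203 to 96293438), Marco on chromosome 1 (120474538 to 120505024) and Spic on chromosome 10 (88674772 to 88685015), all on the minus strand. Timd4 lies on chromosome 11 (46810800 to 46844332) and Cd5l on chromosome 3 (87357881 to 87371073), both on the plus strand. No other annotated gene overlapped any of them. Merged exons spanned from 1040 bases in C1qa to 3841 in Spic.

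Promoters are shown for Vsig4 and C1qb, whose windows hold both forms of the box described next, and for Marco and Spic, which rose in the comparison of MET/CAT with GFP averaged over genotypes. Each line is the 150 bases before the RefSeq start (GRCm38.p6), 5′ to 3′ on the gene's own strand, here always the minus strand. The window of Spic lies inside the annotated span of the gene given above, downstream of the 5′ end of that span. Capitals mark GAGGAA or GGAAGT, forms of the box that the macrophage regulator PU.1 and its relative SPI-C bind, and TGCTGA, the core of a MAF recognition element, on either strand. The first 2 motifs share the letters GGAA and can overlap.
Vsig4, chrX:96293439-96293588: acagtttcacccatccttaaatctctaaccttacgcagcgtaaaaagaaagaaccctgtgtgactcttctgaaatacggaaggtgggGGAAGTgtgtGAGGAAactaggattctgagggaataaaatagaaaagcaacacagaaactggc
C1qb, chr4:136886201-136886350: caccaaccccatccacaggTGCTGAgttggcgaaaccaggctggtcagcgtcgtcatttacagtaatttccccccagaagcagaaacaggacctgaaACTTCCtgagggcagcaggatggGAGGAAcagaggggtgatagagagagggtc
Marco, chr1:120505025-120505174: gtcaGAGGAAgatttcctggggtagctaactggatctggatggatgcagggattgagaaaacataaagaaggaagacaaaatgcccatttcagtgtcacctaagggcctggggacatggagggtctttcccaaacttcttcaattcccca
Spic, chr10:88683024-88683173: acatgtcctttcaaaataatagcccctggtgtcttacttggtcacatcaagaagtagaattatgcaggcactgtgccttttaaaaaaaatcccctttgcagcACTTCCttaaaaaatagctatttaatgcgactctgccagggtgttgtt

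Of the 8 genes with a RefSeq window, GAGGAA was found in 4 (Vsig4, Cd5l, Marco and C1qb) and GGAAGT in 5 (Clec4f, Vsig4, Timd4, C1qb and Spic). TGCTGA was found in 3, namely Timd4, Cd5l and C1qb. C1qc had none of these motifs, but all 150 bases of its window lay in annotated exons, as did 71 bases of the Clec4f window. Over all 32817 windows of the same 150 bases, 14.5% held GAGGAA, 13.6% held GGAAGT and 10.1% held TGCTGA. Vsig4 and C1qb each had both forms of the box, Vsig4 within 63 bases and C1qb within 53 bases of the start. Marco and Spic each had 1 box and no TGCTGA in this window. These matches describe letters only, and binding was not measured.

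The libraries held 18208879 to 24352961 recovered reads, each worth 0.753 to 1.204 of the normalized reads in which all levels below are given. A count of 0 would allow a level of up to 2.26 to 3.61 (3 reads, counting error only), and every library lay above that for each of the 9 genes. Sirt2, the targeted gene, which shares part of its span with Nfkbib, had 725.8 to 1068 normalized reads in the 6 WT libraries and 125.7 to 248.1 in the 6 KO libraries. Hepatocyte genes such as Alb summed to 2080397 to 3464194 normalized reads in these livers. KO GFP replicate 3 stood apart, at −88.95 on principal component 1 (21.96% of variance) against −33.2 to 52.8 in the rest. Its deviations also followed transcript length most closely (rank correlation rho = 0.435 over genes, which are not independent replicates, against −0.333 to 0.172). The 9 genes took 0.00738% of its reads and 0.0250% to 0.0542% elsewhere, so the differences of the 9 genes that include it are also given without it. In bulk tissue, fewer cells of a type and less RNA per cell cannot be told apart.

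Per kilobase of merged exon, the order of the levels in WT GFP livers was C1qa (1939 ± 363 normalized reads per kilobase, SD, n = 3), C1qb (1239 ± 330), Clec4f (1130 ± 232) and Cd5l (910 ± 150). C1qc followed at 633.6 ± 62.6, then Vsig4 at 159.7 ± 49.1, Marco at 107.6 ± 18.6, Timd4 at 31.4 ± 22.3 and Spic at 5.31 ± 2.91. Among the first 4, neighbours in this order had overlapping libraries, while each later gene lay wholly below the one before it. In both MET/CAT groups Marco stood above Vsig4 and Spic above Timd4 per kilobase, the reverse of both GFP groups. In KO MET/CAT livers the libraries of Spic (27.5 to 65.8 per kilobase) and Timd4 (13.9 to 30.8) overlapped, and in WT MET/CAT livers those of the same pair did not (24.4 to 69.2 and 21.8 to 23.0). C1qa held the first place in all 4 groups.

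**Figure D1:**
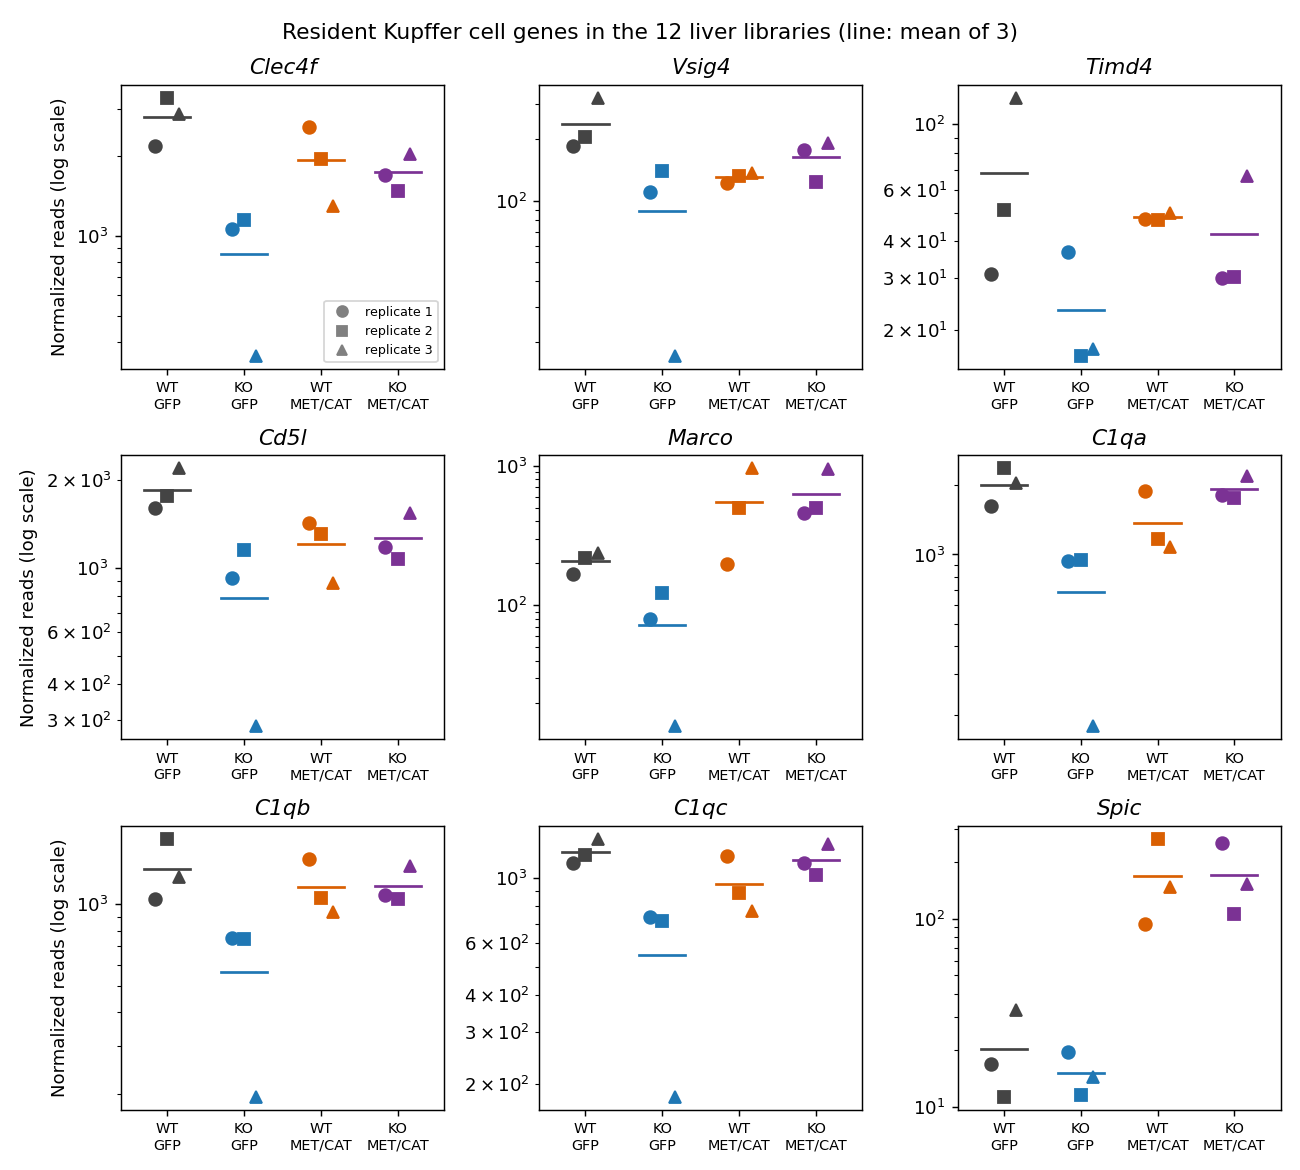
Normalized reads (log scale) of the 9 genes in the 12 libraries, with a symbol for each replicate and a line at the mean of 3. Spic had 11.3 to 32.9 in the GFP libraries and 93.7 to 265.7 in the MET/CAT libraries, while the lowest value of 7 of the other 8 genes was in KO GFP replicate 3.

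The first comparison, KO against WT in GFP livers, asked what loss of hepatocyte Sirt2 went with in the absence of oncogenes. All 9 genes had lower estimates in KO GFP livers, but none passed the test across all genes, and Spic differed least. Clec4f had 2177, 3309 and 2890 normalized reads in WT GFP libraries against 1062, 1153 and 355.3 with the knockout. Every KO library thus lay below every WT library. The log2 difference was −1.86 (SE 0.38, limma adjusted p = 0.162), and −1.31 (adjusted p = 0.209) without KO GFP replicate 3. Over the 18 alternatives its adjusted p ranged from 0.000761 to 0.63.

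The receptors gave the same picture with more spread. Vsig4 had 185.5, 205.1 and 320.5 normalized reads in WT GFP against 109.9, 139.3 and 17.2 in KO GFP libraries. Marco had 167.5, 216.4 and 237.3 in WT GFP against 79.8, 122.0 and 13.6 in KO GFP libraries. Neither gene's groups overlapped, and in both the third KO library was several times below the other two. The log2 differences were −1.82 for Vsig4 (SE 0.57, limma adjusted p = 0.283) and −1.97 for Marco (SE 0.67, adjusted p = 0.287), and −0.89 and −1.05 without that library (adjusted p = 0.632 and 0.687). Timd4 had lower levels and, relative to its mean, more scattered WT GFP libraries, with 30.9, 51.0 and 123.0 there against 36.9, 16.3 and 17.2 in KO GFP libraries. Its groups overlapped, the log2 difference was −1.37 (SE 0.51, limma adjusted p = 0.288), and here KO GFP replicate 2, not replicate 3, was lowest. The difference of Timd4 was −1.20 without KO GFP replicate 3, −0.83 without WT GFP replicate 3, its highest library, and with library quality weights −0.14.

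The genes of secreted proteins also had lower estimates. Cd5l had 1605, 1758 and 2193 normalized reads in WT GFP against 920.0, 1151 and 285.7 in KO GFP libraries, a log2 difference of −1.45 (SE 0.40, limma adjusted p = 0.272) that was −0.83 (adjusted p = 0.604) without KO GFP replicate 3. C1qa had 1621, 2374 and 2053 in WT GFP against 934.3, 948.1 and 178.1 in KO GFP libraries. C1qb had 1042, 1743 and 1259 against 750.6, 743.5 and 195.3. C1qc had 1120, 1194 and 1356 against 739.3, 716.6 and 180.8. In these 4 genes each KO GFP library was below each WT GFP library. The log2 differences of the C1q genes were −1.88 (SE 0.48), −1.46 (SE 0.41) and −1.41 (SE 0.41) in that order, each with a limma adjusted p of 0.272. They were −1.08, −0.82 and −0.74 without KO GFP replicate 3.

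Spic had 17.0, 11.3 and 32.9 normalized reads in WT GFP against 19.6, 11.5 and 14.5 in KO GFP libraries. These groups overlapped and the third KO library was not the lowest. The log2 difference was −0.30 (SE 0.48, limma adjusted p = 0.768), and −0.29 without KO GFP replicate 3.

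Across all genes this comparison called 1 gene, 0.00721% of those tested, and that gene was Sirt2 itself. None of the 9 was called by limma or edgeR. DESeq2 called Clec4f (adjusted p = 0.00337) and C1qa (adjusted p = 0.0461), among 118 genes in all (0.851%). At an unadjusted p under 0.05, 8 of the 9 were lower, all but Spic, where 9.83% of all tested genes were. For 7 of the 9 (not Timd4 or Spic) the libraries did not overlap, with the KO lower, as for 13% of all tested genes. The median difference of the 9 was −1.46 against −0.07 over all genes. Without KO GFP replicate 3 all 9 were still lower with a median of −0.89, 6 had an unadjusted p under 0.05 (7.39% of all genes, either direction), and 7 did not overlap, against 30.3%. Weighting libraries by their quality called 7 of the 9 together with 4575 genes in all. Under that weighting the 7 differences ran from −1.15 (Clec4f) to −0.61 (C1qb).

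Genes of other cells also had lower estimates in KO GFP livers, where 55.1% of all tested genes did. Of 10 other resident Kupffer cell genes, 9 had lower estimates (median −0.85, none called), among them Folr2, a folate receptor (−1.81), Clec1b, a lectin (−1.53), and Csf1r, the receptor for the macrophage growth factor (−0.82). All 12 general macrophage genes were lower (median −1.13, none called), with Laptm5 at −1.29, Aif1 at −1.40 and Fcer1g at −1.64. All 8 B, T and NK cell genes were lower too (median −1.42, none called), and 5 of 8 monocyte genes were (median −0.29, none called). Of 8 sinusoidal endothelial genes 7 were lower (median −0.29, none called), and of 6 stellate cell genes 5 were (median −0.56, none called). Lower too were 4 of 6 hepatocyte genes (median −0.28), 3 of 4 erythroid genes (−0.72) and 4 of 6 neutrophil genes (−0.69). So were 4 of 6 activated macrophage genes (−1.31) and 4 of 7 lipid-associated macrophage genes (−0.19), with none called in these 5 lists. The mean log2 deviation of the general macrophage genes was 0.04 to 0.25 in WT GFP libraries, −0.44 and −0.65 in the first 2 KO GFP ones and −1.76 in the third, where 1 of the 12 was at 0. That of the B, T and NK cell genes was 0.66 to 0.86 in WT GFP against 0.23, −0.70 and −1.23 in KO GFP libraries. Medians without KO GFP replicate 3 were −0.67 for the other resident genes, −0.59 for general macrophage genes, −0.95 for B, T and NK cell genes and −0.29 for monocyte genes. They were −0.23 for endothelial, −0.38 for stellate cell, −0.10 for hepatocyte and −1.23 for erythroid genes. For neutrophil genes the median was then −0.55, for activated macrophage genes −0.75 and for lipid-associated macrophage genes 0.21, with none called in any of these lists. The part of these cells in the differences of the 9 genes was not tested.

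In MET/CAT livers the genotypes lay close together. Clec4f had 2569, 1956 and 1294 normalized reads in WT MET/CAT and 1705, 1480 and 2038 in KO MET/CAT libraries. C1qa had 1889, 1163 and 1082 against 1826, 1771 and 2203, and C1qc had 1188, 887.9 and 773.8 against 1126, 1022 and 1306. All 3 genes overlapped between genotypes. The log2 differences of the 9 genes ran from −0.29 (Timd4, SE 0.51) to 0.53 (C1qa, SE 0.48, limma adjusted p = 0.781), with a median of 0.08. No member was called by limma, edgeR or DESeq2, where limma called 0.00721% of all genes. No member had an unadjusted p under 0.05 either, against 7.76% of all genes, and none had groups without overlap, against 13.8%. With 3 libraries a group, differences of this size could not be resolved, since the SE of the 9 ran from 0.38 to 0.67.

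**Figure D2:**
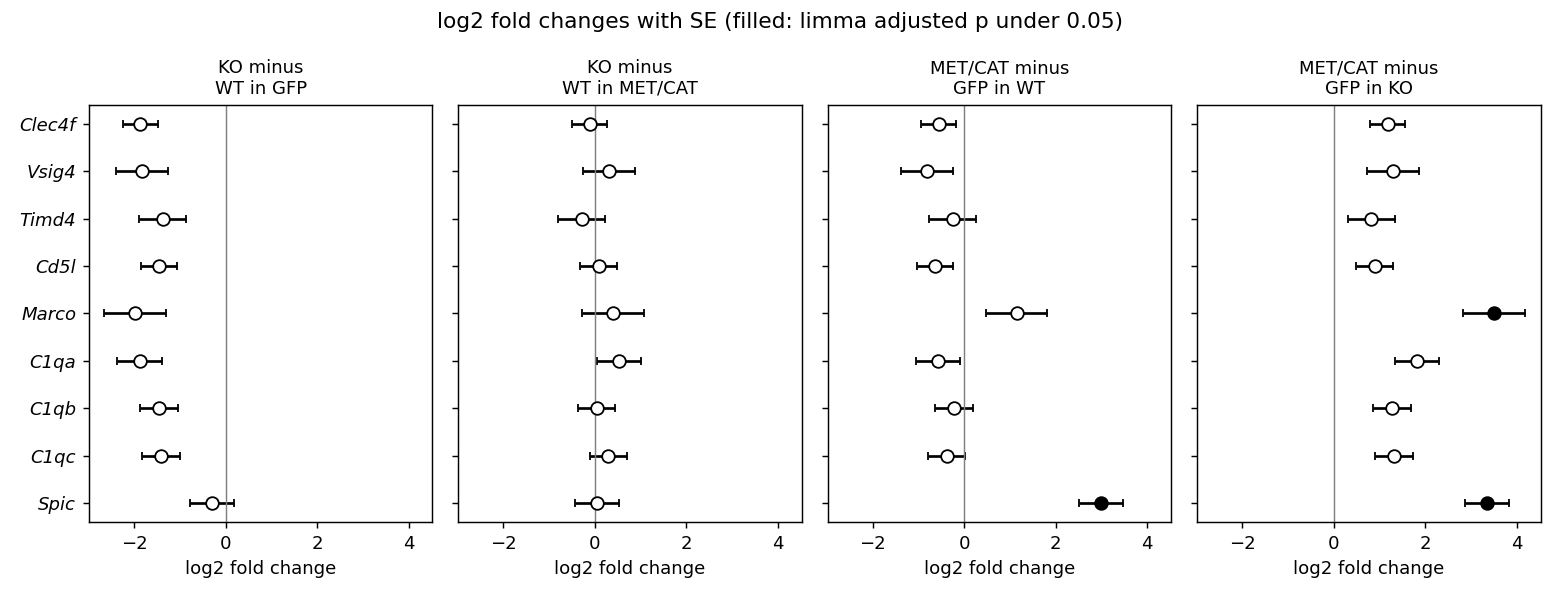
log2 fold changes (x axis) of the 9 genes with SE bars in 4 comparisons, from 1 limma fit over all 12 libraries. Filled points passed an adjusted p of 0.05: Spic at 2.99 in WT livers, and Spic at 3.34 and Marco at 3.51 in KO livers.

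The difference between these genotype effects was tested as an interaction. All 9 estimates were above 0, from 0.36 (Spic) to 2.41 (C1qa, SE 0.68, limma adjusted p = 0.265), with a median of 1.70. Of the 9, 7 had an unadjusted p under 0.05 in that direction, against 9.32% of all genes. None was called by limma, edgeR or DESeq2, and limma and edgeR called 0 of the 13871 genes (0%) while 2153 had an unadjusted p under 0.05 in the limma fit. DESeq2 called 155 genes. Library quality weights called 3 of the 9, Clec4f (1.17, adjusted p = 0.0435), C1qa (1.64, adjusted p = 0.0257) and C1qc (1.11, adjusted p = 0.0454), together with 1374 genes in all. Apart from that weighting, the genotype effect in GFP livers was not shown to differ from that in MET/CAT livers for any of the 9. Leaving out KO GFP replicate 3 gave a median of 1.04 and no call.

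Oncogene plasmids were compared with GFP within each genotype, and here the 9 genes parted. Spic rose in livers of both genotypes, from 11.3 to 32.9 normalized reads in all 6 GFP libraries to 93.7, 265.7 and 146.8 in WT MET/CAT and 252.9, 105.7 and 152.9 in KO MET/CAT libraries. No MET/CAT library overlapped a GFP library. The log2 difference was 2.99 in WT livers (SE 0.48, limma adjusted p = 0.0188), 3.34 in KO livers (SE 0.48, adjusted p = 0.00728) and 3.16 averaged over genotypes (SE 0.34, adjusted p = 0.000553). The KO and averaged differences were 3.33 and 3.16 without KO GFP replicate 3. The averaged call was made in all 23 alternatives (adjusted p 2.50e-16 to 0.00308) and the KO call in all 18 (1.04e-08 to 0.0384). The WT call was made in 14 of 18 (9.28e-07 to 0.1). It was lost without WT GFP replicate 1 (adjusted p = 0.0928) or 2 (0.1) and without WT MET/CAT replicate 2 (0.0519) or 3 (0.068), at differences of 2.59 to 3.02.

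Marco had 167.5 to 237.3 normalized reads in WT GFP and 198.4, 494.6 and 955.1 in WT MET/CAT libraries. It had 13.6 to 122.0 in KO GFP and 454.0, 494.8 and 941.5 in KO MET/CAT libraries. In WT livers the first MET/CAT library lay within the GFP range and the other two above it, and in KO livers all MET/CAT libraries lay above. The log2 difference was 1.15 in WT livers (SE 0.67, limma adjusted p = 0.457, not called), 3.51 in KO livers (SE 0.67, adjusted p = 0.0263) and 2.33 averaged over genotypes (SE 0.48, adjusted p = 0.0164). In WT livers 1 of 18 alternatives called Marco, namely library quality weights (1.63, limma adjusted p = 0.015), which called 2615 genes in all. The averaged call was made in all 23 alternatives (adjusted p 0.000134 to 0.0476). The KO call was made in 14 of 18 (0.000654 to 0.0718) and was lost without any single KO MET/CAT library (0.0607 to 0.0718) and when only the 6 KO libraries were fitted (0.0648). Without KO GFP replicate 3 it was 2.58 (adjusted p = 0.05 after rounding, still called), and the averaged difference was 1.86 (adjusted p = 0.0121). Whether Marco differed more in KO than in WT livers is the interaction above, which did not pass (2.36, SE 0.95, adjusted p = 0.283, and 1.44 without KO GFP replicate 3).

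None of the other 7 genes was called in WT livers. Vsig4 had 122.6, 131.8 and 136.8 normalized reads in WT MET/CAT libraries, each below the WT GFP range of 185.5 to 320.5. Cd5l had 1424, 1310 and 889.5, each below the WT GFP range of 1605 to 2193. C1qb had 1469, 1058 and 936.2, against 1042 to 1743 in WT GFP libraries. In C1qb and the remaining 4 the groups overlapped, and Timd4 had 47.8, 47.5 and 50.0 in WT MET/CAT libraries, inside the WT GFP range of 30.9 to 123.0. The 7 log2 differences ran from −0.82 (Vsig4, SE 0.57, limma adjusted p = 0.535) to −0.22 (C1qb, SE 0.41, adjusted p = 0.839), and none was called.

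Counted over the 9 genes in WT livers, 1 was called higher, Spic, where 0.209% of all genes were. Vsig4 and Cd5l were lower without overlap, as were 10.3% of all genes, and Spic was the only one higher without overlap, as were 10.5%. The median was −0.38 against −0.01 over all genes.

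In KO livers the same 7 genes had higher estimates in MET/CAT than in GFP libraries, against a KO GFP group that included replicate 3. C1qb had 1084, 1043 and 1389 normalized reads in KO MET/CAT libraries and 195.3 to 750.6 in KO GFP libraries. Vsig4 had 178.2, 123.4 and 191.1 against 17.2 to 139.3, and Timd4 had 30.1, 30.3 and 66.9 against 16.3 to 36.9. Cd5l had 1183, 1075 and 1540 against 285.7 to 1151. C1qb did not overlap, and Vsig4, Timd4 and Cd5l did. The differences were largest for C1qa (1.83, SE 0.48, limma adjusted p = 0.0801) and smallest for Timd4 (0.82, SE 0.51, adjusted p = 0.376). DESeq2 called C1qa here (1.46, adjusted p = 0.0197), among 928 genes in all (6.69%). Library quality weights called C1qa (1.16, adjusted p = 0.0157) and Clec4f (0.79, adjusted p = 0.0471), among 1635 genes in all. The 7 estimates without KO GFP replicate 3 ran from 0.28 (Cd5l) to 1.03 (C1qa, limma adjusted p = 0.0923), and none of the 7 was called.

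Of the 9, 2 were called higher in KO livers, Marco and Spic, where 0.858% of all genes were. At an unadjusted p under 0.05, 8 were higher, all but Timd4, against 12.2% of all genes, and 6 were higher without overlap (Clec4f, Marco, C1qa, C1qb, C1qc and Spic) against 14.4%. The median was 1.31 against 0.05 over all genes. Without KO GFP replicate 3 the median was 0.65, with all 9 still higher and the same 2 called. Then 6 had an unadjusted p under 0.05, against 12.8% of all genes in either direction, and 6 did not overlap, against 34%. Averaged over genotypes, 2 of 9 were called higher against 2.4% of all genes, and the 7 uncalled estimates ran from 0.13 (Cd5l) to 0.63 (C1qa), and from −0.22 (Vsig4) to 0.23 (C1qa) without KO GFP replicate 3. The KO GFP libraries enter both this comparison and that of genotypes in GFP livers, so the 2 are not separate evidence about them.

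**Figure D3:**
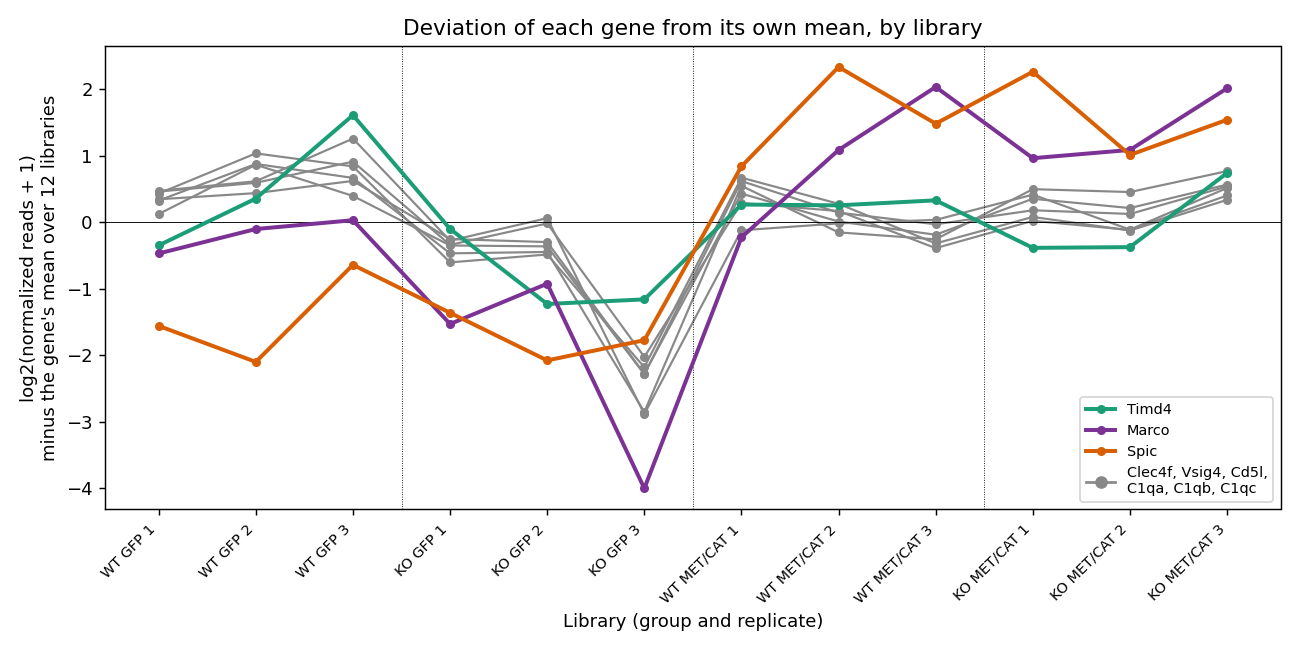
Level of each gene in each library, as log2(normalized reads + 1) minus the gene's own mean over the 12 libraries (y axis), with libraries grouped on the x axis. Spic lay below its mean in all 6 GFP libraries and above it in all 6 MET/CAT libraries, while the 6 grey genes ran together and dipped in KO GFP replicate 3.

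Ratios within a library, taken on log2(normalized reads + 1), cancel its scaling except where a level is low, as for Spic in GFP livers. For Spic and Marco they show the same parting. The log2 ratio of Spic to Clec4f was −8.07 to −6.41 in WT GFP, −6.53 to −4.53 in KO GFP, −4.76 to −2.88 in WT MET/CAT and −3.80 to −2.75 in KO MET/CAT libraries. No MET/CAT library overlapped the GFP libraries of its genotype. The log2 ratio of Marco to Clec4f was −3.93 to −3.60 in WT GFP against −4.61 to −3.23 in KO GFP libraries. It was −3.69, −1.98 and −0.44 in WT MET/CAT and −1.91, −1.58 and −1.11 in KO MET/CAT libraries. The log2 ratio of Cd5l to Clec4f stayed between −0.91 and −0.0024 in all 12, that of C1qb between −1.20 and −0.47 and that of C1qc between −1.47 and −0.52. It ran from −4.38 to −3.04 for Vsig4, from −6.09 to −4.29 for Timd4 and from −0.99 to 0.26 for C1qa. The C1qa ratio was above 0 in every KO MET/CAT library and below 0 in every other library.

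The C1q genes parted slightly from each other. The log2 ratio of C1qa to C1qb, looked at after the values had been seen and so given without a test, was 0.64, 0.45 and 0.71 in WT GFP libraries. It was 0.32, 0.35 and −0.13 in KO GFP, 0.36, 0.14 and 0.21 in WT MET/CAT and 0.75, 0.76 and 0.66 in KO MET/CAT libraries. Knockout livers thus lay below wild type with GFP and above it with MET/CAT, with no overlap in either case. Per kilobase, C1qa made up 50.3% to 51.5% of the C1q reads in WT GFP libraries, 38.5% to 46.4% in KO GFP, 43.9% to 48.0% in WT MET/CAT and 52.0% to 53.4% in KO MET/CAT libraries. C1qb rather than C1qa was the largest part only in KO GFP replicate 3 (40.4% against 38.5%).

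Whether the genes went together from library to library beyond the group differences was tested on deviations from the group means, over 12 libraries and 36 pairs. Libraries were permuted within groups in all 1296 ways (exact, two-sided, smallest p 0.000772), and p was adjusted over the 36 pairs. By Pearson's r 11 pairs passed, and by Spearman's rho 10 did. Genes of 1 library share its depth and scaling.

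Clec4f, Vsig4, Cd5l, C1qa, C1qb and C1qc formed the pairs with the highest r. Their 15 pairs had r from 0.83 to 0.99 with a median of 0.94, and 10 of the 15 passed. This grouping was not planned and holds the highest r, so the range and count describe the group and do not test it. C1qa and C1qb were closest (r = 0.987, rho = 0.958, exact permutation adjusted p = 0.0185 and 0.0208). C1qa and C1qc followed (r = 0.982, rho = 0.930, adjusted p = 0.0432 and 0.0222), then Cd5l and C1qc (r = 0.967, rho = 0.958, adjusted p = 0.0208 for both). Without the 2 libraries farthest from the median of the first gene, the 15 pairs had r from 0.48 to 0.96 with a median of 0.84. Without KO GFP replicate 3 alone they had 0.09 to 0.94 with a median of 0.72. The 5 pairs with Vsig4 were the weakest then, at 0.09 (C1qb) to 0.57 (Cd5l), with Cd5l and C1qb next at 0.58. The r of Vsig4 with Clec4f and the C1q genes was 0.09 to 0.37 then, so those relations rest largely on that library. The C1q pairs had r of 0.72 to 0.94. No pair of the 36 passed without KO GFP replicate 3, where C1qa and C1qb had an exact permutation adjusted p of 0.139. None passed either without any single one of KO GFP replicates 1 and 2, WT MET/CAT replicates 1 and 2 and KO MET/CAT replicate 3, and fewer orders of the libraries are possible with 11.

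Marco, Timd4 and Spic stood outside over all 12 libraries. That division did not hold for Vsig4 without KO GFP replicate 3, where its r was higher with Timd4 and Spic than with Clec4f or any C1q gene. Marco had r of 0.14 (Spic) to 0.82 with the others, and only its pair with Vsig4 passed by r (r = 0.818, rho = 0.741, exact permutation adjusted p = 0.0222 and 0.0581). Without KO GFP replicate 3 its r with Clec4f, Cd5l and the C1q genes was below 0, from −0.46 to −0.18, and with Vsig4 it was 0.44. Timd4 had r of 0.31 to 0.41 with the others and no pair passed. Its r was 0.27 (Marco) to 0.60 (Vsig4) without KO GFP replicate 3. Spic had the lowest 3 of all pairs, with C1qb (r = −0.164, rho = −0.154, exact permutation adjusted p = 0.64 and 0.724), C1qa (−0.132, −0.266, 0.685 and 0.521) and Clec4f (−0.068, −0.203, 0.837 and 0.625). None of its 8 pairs passed, and without KO GFP replicate 3 their r ran from −0.42 (C1qa) to 0.54 (Vsig4). Among MET/CAT libraries, Marco was highest in replicate 3 of each genotype (955.1 and 941.5), Spic in WT replicate 2 and KO replicate 1 (265.7 and 252.9).

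**Figure D4:**
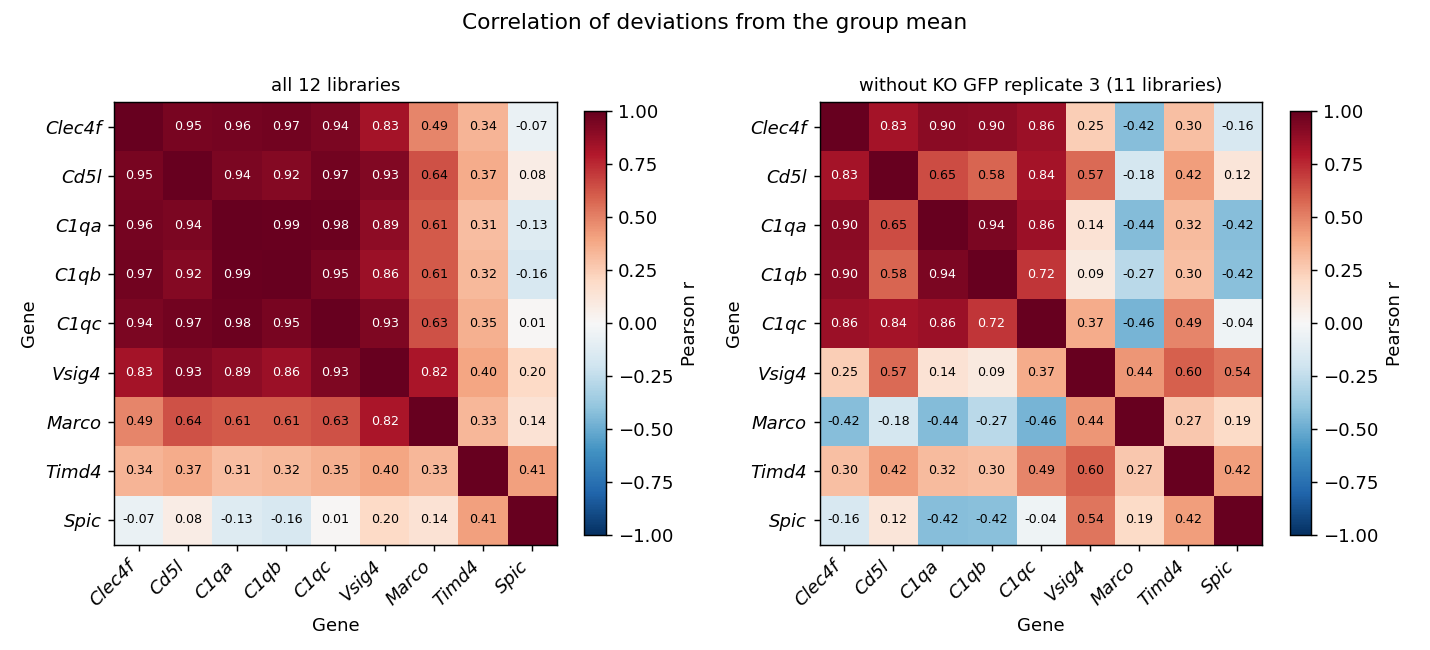
Pearson r between the 9 genes, computed on deviations from the group means over all 12 libraries (left) and without KO GFP replicate 3 (right). The block of Clec4f, Cd5l and the C1q genes stays at 0.58 to 0.94 on the right, whereas Vsig4 has 0.09 to 0.57 with these genes there, and several pairs with Marco lie below 0.

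Outside the 9, the genes most like each of 4 of them over the 12 libraries were sought among 9696 genes with a mean of at least 50, as a description that includes the group differences. For Clec4f these were Cfp, which encodes properdin, a complement factor (r = 0.969), Ppp2r3d (0.967), Fcna, a ficolin (0.941), Ly6e and Folr2 (0.934 each). For C1qa they were Cfp again (0.972), Ang (0.965), Cyba, a subunit of the phagocyte oxidase (0.963), Bgn (0.963) and Gpihbp1 (0.961). Timd4 had weaker matches, Ssbp4 (0.887), Adgre1, the macrophage antigen F4/80 (0.836), Myl9 (0.823), Bloc1s6 (0.821) and Ring1 (0.813). For Spic they were Mid1 (0.957), Acod1, which makes itaconate in activated macrophages (0.956), Hcar2, a receptor for hydroxybutyrate and niacin (0.951), Rab8b (0.951) and Nedd4l (0.947). Acod1, Hcar2 and Rab8b had means under 50 in both GFP groups. They entered the candidates only through the MET/CAT livers, where Spic was also high, so their high r is partly built in. The lists of Clec4f and C1qa share Cfp, and those of Timd4 and Spic share no gene with them or with each other. KO GFP replicate 3, where Clec4f and C1qa were lowest, was included, and likeness without it was not computed. Acod1 averaged 0.32 normalized reads in KO GFP livers and was at 0 in WT GFP livers, and 118.4 ± 108 and 128.3 ± 154 (SD, n = 3) in WT and KO MET/CAT livers.

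Few regulators and partners of the 9 genes passed the test. Of 10 regulators of Kupffer cell identity, none was called in WT livers with MET/CAT, and 1 was called in KO livers, Id3, higher by 3.16 (SE 0.52, limma adjusted p = 0.0122), and by 2.64 (adjusted p = 0.0409) without KO GFP replicate 3. Spi1, which encodes PU.1, differed by 1.91 in KO livers (limma adjusted p = 0.0701), and by 1.41 (adjusted p = 0.207) without KO GFP replicate 3. Of 12 genes of heme and iron recycling, the process Spic serves in macrophages, none was called within either genotype, and averaged over genotypes 1 was called higher and 1 lower. Hmox1, heme oxygenase, differed by 2.78 in KO livers (adjusted p = 0.0527), with a mean of 2125 ± 2637 normalized reads (SD, n = 3) that shows how far its libraries lay apart. Averaged over genotypes Hmox1 rose by 1.76 (SE 0.46, limma adjusted p = 0.049), a call lost without KO GFP replicate 3 (1.63, adjusted p = 0.0852). Slc40a1, the iron exporter ferroportin, had differences of −1.09 in WT livers (adjusted p = 0.0829) and, with the knockout, −1.02 (adjusted p = 0.0758), opposite in sign to Spic. Averaged over genotypes Slc40a1 fell by 1.05 on the log2 scale (SE 0.19, limma adjusted p = 0.007), with −1.08 (adjusted p = 0.012) without KO GFP replicate 3. Of 8 partners of C1q in the classical pathway, none was called in either genotype, and C2 had differences of −0.96 with wild type and 0.84 with knockout. The latter was 0.31 (limma adjusted p = 0.684) without KO GFP replicate 3. Of 13 phagocytic and scavenger receptors none was called in either genotype, with medians of 0.27 and 0.62.

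Genes of other myeloid cells also differed between plasmids. The 6 neutrophil genes summed to 56.9 to 173.4 normalized reads in the 6 GFP libraries, with 1 or 2 genes at 0 in each, and to 312.0 to 3051 in the MET/CAT libraries, with none at 0. All 6 passed the comparison averaged over genotypes, and S100a8, a calprotectin subunit, rose by 3.63 in KO livers (SE 0.62, limma adjusted p = 0.014). In KO livers 3 of the 6 were called with all libraries and none without KO GFP replicate 3, where S100a8 had 3.49 (limma adjusted p = 0.0527), while all 6 still passed the averaged comparison. Of 6 activated macrophage genes tested, Acod1 was called higher in both genotypes (limma adjusted p = 0.0189 in WT livers, 0.0126 with the knockout), and Il1b, an inflammatory cytokine, in KO livers (5.74, adjusted p = 0.00741). The 6 did not all go one way, with 4 higher and 2 lower in WT livers and 5 higher and 1 lower in KO livers. No monocyte gene of 8 was called in either genotype, with medians of 0.87 and 0.98. The 9 monocyte genes in the table summed to 285.1, 604.2 and 450.3 in WT MET/CAT and 291.4, 150.7 and 358.8 in KO MET/CAT libraries. Across the 6 MET/CAT libraries the highest neutrophil sums were in KO replicate 1 (3051) and WT replicate 2 (1053), which were also the highest libraries for Spic. In general macrophage genes, Laptm5 (1.49, adjusted p = 0.00764) and Fcer1g (2.00, adjusted p = 0.0461) were called higher in KO livers, and none was called in WT livers. Both were also called without KO GFP replicate 3 (1.31 and 1.27). None of 7 lipid-associated macrophage, 8 lymphocyte, 8 sinusoidal endothelial, 6 stellate cell, 6 hepatocyte and 4 erythroid genes was called in either genotype. The part of neutrophils and activated macrophages in the levels of Spic and Marco was not tested.

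**Figure D5:**
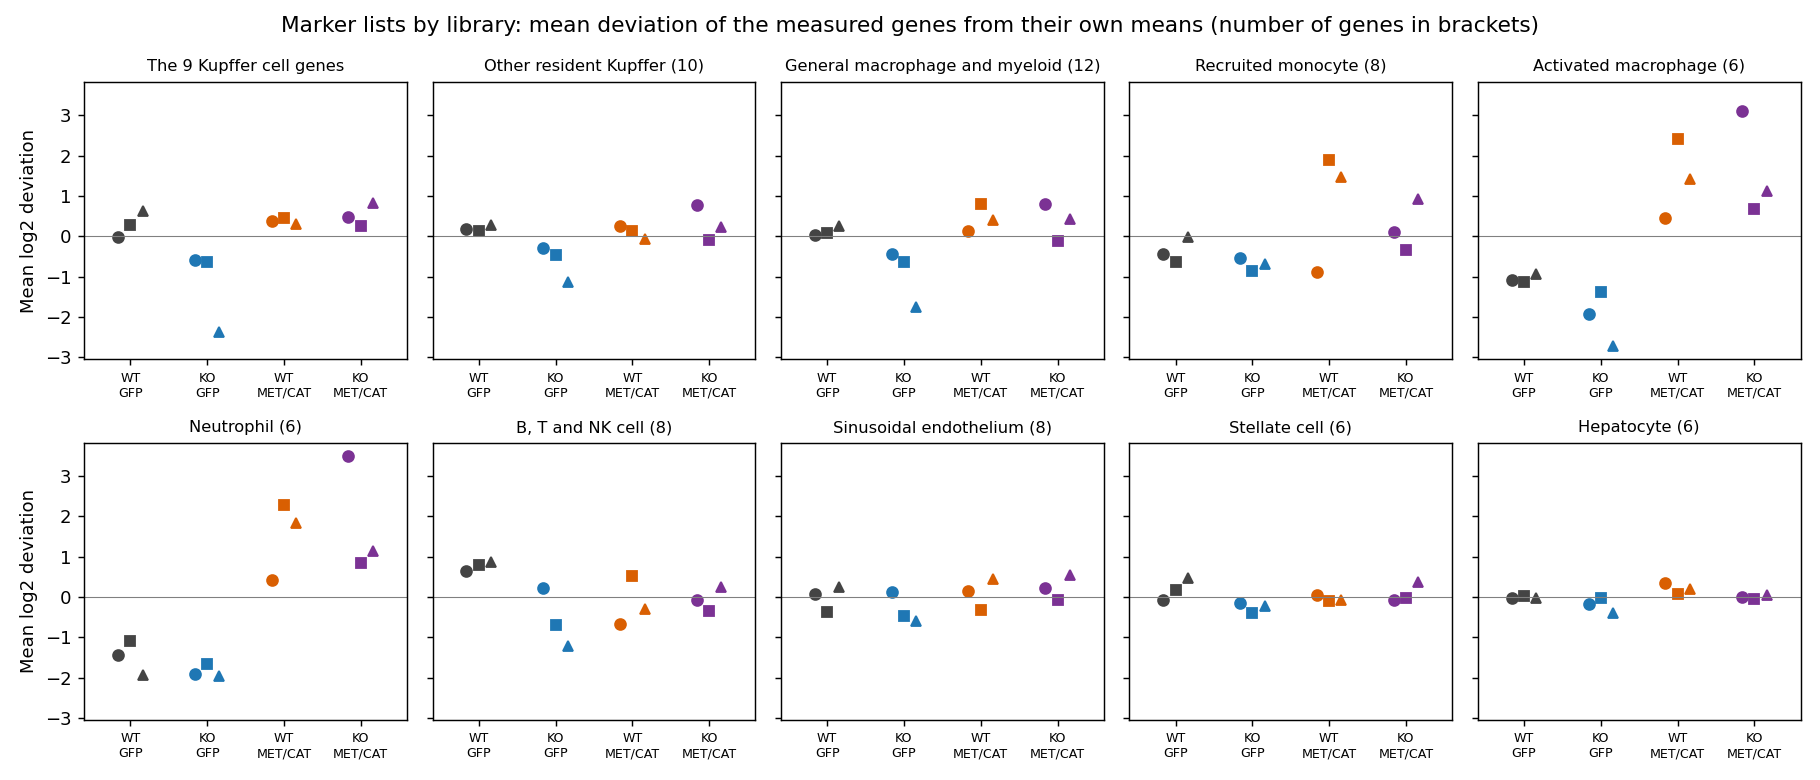
Mean log2 deviation of each marker list from its genes' own means, by group and replicate (symbols as circle, square and triangle for replicates 1, 2 and 3). The list means of neutrophil and of activated macrophage genes, though not every gene in the latter, were lower in all 6 GFP libraries than in all 6 MET/CAT libraries. The 9 Kupffer cell genes together had their lowest value in KO GFP replicate 3 (−2.38).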

How the data were processed

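Genome build GRCm38, HISAT2 2.0.4 and HTSeq 0.11.2 are named in the submitters' processing notes. The authors deposited a signal per gene: counts divided by 1 factor per library, as the values show. The normalization tool, strand setting and annotation are not named there or in the labels. Dividing by the step between low values gave whole reads for 100% of values in each library (tolerance 0.1 reads), though in 2 libraries, the first WT one of each plasmid, that step lay too near 1 to prove it.

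Values were tested with limma 3.58.1 (R 4.3.3), using its trended variance prior and log2(value + 1), over genes with at least 10 in at least 3 libraries. A single model held 4 group means over all 12 libraries, and Benjamini-Hochberg adjustment ran over the 13871 genes, with calls at an adjusted p under 0.05. Folds on this scale understate the change of low genes. Pair correlations were tested by exact permutation in Python 3.11.15 with numpy 2.4.6. Scripts were checked on simulated data. Alternatives were pseudocounts of 0.5 and 5, no filter or one of 50, quantile normalization, equal totals, quality weights, edgeR 4.0.16 and DESeq2 1.42.0 on recovered reads, a replicate block, the 6 libraries compared alone, and each library left out. A fit with the trend over transcript length taken out, and the companion lists without KO GFP replicate 3, were added after seeing the data.

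The 9 genes and the 15 companion lists, which share some genes, were chosen with earlier results of these data known. From each list described, the 3 genes with the smallest p could be named, and all called genes where 5 or fewer were called. Likeness was sought for Clec4f, C1qa, Timd4 and Spic, with the 5 highest r outside the 9 and without predicted genes, pseudogenes and Riken names.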

Additional observations from a re-analysis of the deposited data

How the results depend on the processing

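No member was called in the genotype comparison of MET/CAT livers under any alternative run, and 2 were called averaged over genotypes under each. Library quality weights called 7 in the genotype comparison of GFP livers, 2 and 4 for MET/CAT against GFP in WT and KO livers, and 3 in the interaction. Those weights called 4575, 2615, 1635 and 1374 of all genes in the same comparisons. DESeq2 called 2 in the genotype comparison of GFP livers, among 118 genes in all (0.851%). For MET/CAT against GFP in KO livers DESeq2 called 3, the third being C1qa, among 928 genes in all (6.69%). Fitting only the 6 libraries compared called 1 in KO livers. Leaving out single libraries gave 0 to 1 calls in WT livers, 1 to 2 in KO livers and 0 to 11 member pairs. Pairs are lost partly by construction, since 11 libraries allow fewer orders. The cause of the other shifts was not tested.

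Estimates near 0 turned sign, none of them called. In the genotype comparison of MET/CAT livers, quality weights gave 0.024 for Clec4f and −0.26 for Spic. With the length trend removed, Cd5l was −0.012 and C1qb −0.17 there, and C1qb was 0.081 for MET/CAT against GFP in WT livers. Leaving out single libraries in that genotype comparison gave −0.38 to 0.12 for Clec4f, −0.21 to 0.93 for Marco, −0.30 to 0.44 for Spic, −0.13 to 0.21 for Cd5l and −0.10 to 0.22 for C1qb. Spic in GFP livers was 0.056 with quality weights and −0.64 to 0.092 over left-out libraries, and its interaction −0.32 and −0.039 to 0.75. Timd4 for MET/CAT in WT livers was 0.42 with quality weights and −0.70 to 0.28 over left-out libraries. Averaged over genotypes, Vsig4 was −0.0057 with edgeR, −0.0032 with DESeq2 and −0.22 to 0.52 over left-out libraries. Cd5l was −0.032 with equal totals and −0.18 to 0.33 over left-out libraries. The correlation of Clec4f and Spic was 0.011 with quantile normalization, 0.013 with equal totals and −0.18 to 0.12 over left-out libraries. That of C1qa and Spic was −0.42 to 0.011.

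Equal totals shifted the all-gene median from −0.07 to 0.11 in the genotype comparison of GFP livers. For MET/CAT against GFP the shift was from −0.01 to −0.12 in WT livers and from 0.05 to −0.17 in KO livers. With the replicate block, counts of members called were 0, 0, 1, 2, 2 and 0 over the 6 comparisons, as without it. Libraries with the same replicate number did not all deviate together (r −0.195 to 0.28), so the numbers were not taken as pairs.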
